A study of Homo sapiens with 18 samples.

Results

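The genes described here encode the pro-apoptotic side of the BCL2 family: the BH3-only genes BCL2L11 (BIM), BMF, HRK (Harakiri), BBC3 (PUMA), PMAIP1 (NOXA), BID, BIK and BAD, and the pore-forming effectors BAX and BAK1. They were taken by name from a fixed list, and all 10 are among the 25369 genes of each deposited table. Transcripts were measured by RNA sequencing in 18 libraries from JEKO1 and MAVER, established human lines of mantle cell lymphoma, a malignancy of B lymphocytes that typically carries excess cyclin D1. JEKO1 cells had been kept for 6 h with IB (n = 3) or with DMSO, the solvent control (n = 3). MAVER cells had been kept for 6 h with IB, KPT or PU, or with DMSO (n = 3 each). IB was read as 0.4 µM ibrutinib, which blocks BTK, a kinase below the B cell receptor. KPT was read as 1.5 µM selinexor, which blocks XPO1, the carrier that moves proteins out of the nucleus. The series description names these inhibitors and doses. What PU stands for is not given, and it is kept as written. Only MAVER has KPT and PU libraries here. The replicates are described as biological, with no account of how cultures were kept apart, and p-values cover the spread among the libraries at hand, which may be partly technical.

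BH3-only proteins are the sensors of the mitochondrial pathway of apoptosis. Each carries a short BH3 helix that binds the groove of anti-apoptotic relatives such as BCL2, BCL-XL (from BCL2L1) and MCL1, and some of them also activate BAX and BAK directly. Activated BAX and BAK form pores in the outer mitochondrial membrane, which release cytochrome c and start the caspase cascade. In B cells, BIM is known for the removal of cells after antigen receptor signals or loss of survival signals.

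Recovered depth was 5374226 to 17040599 reads per library. The KPT libraries were the shallowest, at 5374226 to 7924550 reads, against at least 8035123 in every other library. The part of depth in the KPT results was not tested. All 8 B cell markers were detected in every group, with a summed level of 26464 to 28217 normalized counts per JEKO1 library and 26832 to 32228 per MAVER library, and CCND1 (cyclin D1) averaged at least 27010 normalized counts in each group. T and NK cell markers summed to at most 17.9 normalized counts in any library, myeloid markers to at most 11.4, and 3 erythroid markers stood at 0. Plasma cell markers summed to 379 to 465 normalized counts per JEKO1 library and 3908 to 5115 per MAVER library. Of the stromal and epithelial markers, COL1A1 averaged 680.1 normalized counts with PU and 61.1 with DMSO in MAVER, while COL3A1 stood at 0. EPCAM averaged 284 with PU, 207 with KPT, 170 with IB and 176 with DMSO in MAVER. KRT18 averaged 23.9, 19.2, 19.5 and 13.6 in the same order. The part of these marker differences in the PU results was not tested. RNA45S5, the ribosomal RNA precursor, was high in KPT replicates A and C (53819 and 66933 normalized counts) and in JEKO1 DMSO replicate C (65331), against 7919 to 32274 in the other libraries. Of 1415 genes called under IB in both lines, 1260 (89%) moved in opposite directions. Opposite responses of the lines and swapped IB and DMSO labels in JEKO1 cannot be told apart, and each JEKO1 direction below is that of the libraries as labelled.

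Of the 10 genes, 9 passed the filter in JEKO1 (a mean of at least 10 normalized counts over its libraries) and all 10 passed in MAVER. In JEKO1 libraries labelled IB, 6 of the 9 tested genes rose and 3 fell (limma, Benjamini-Hochberg adjusted p under 0.05 over all genes), where 42.0% of all 11609 genes tested were called, 21.9% up and 20.2% down. With IB in MAVER, 4 of 10 rose and 0 fell, against 19.8% of all genes called, 10.1% up and 9.65% down. KPT raised 5 and lowered 3 of the 10, against 55.9% of all genes called (27.3% up, 28.5% down). PU raised 4 and lowered 1, against 55.1% of all genes called (27.6% up, 27.5% down), so the share of these genes called with PU was near that of all genes. The median log2 fold change over the tested members was 0.351 for JEKO1 IB, 0.0489 for MAVER IB, 0.195 for KPT and 0.065 for PU, beside -0.00616, -0.00558, -0.00141 and 0.00688 over all genes tested. The 3 MAVER drug comparisons share their DMSO libraries. These are bulk libraries, so a change in the number of cells that carry a transcript and a change in transcript per cell cannot be told apart.

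**Figure D1:**
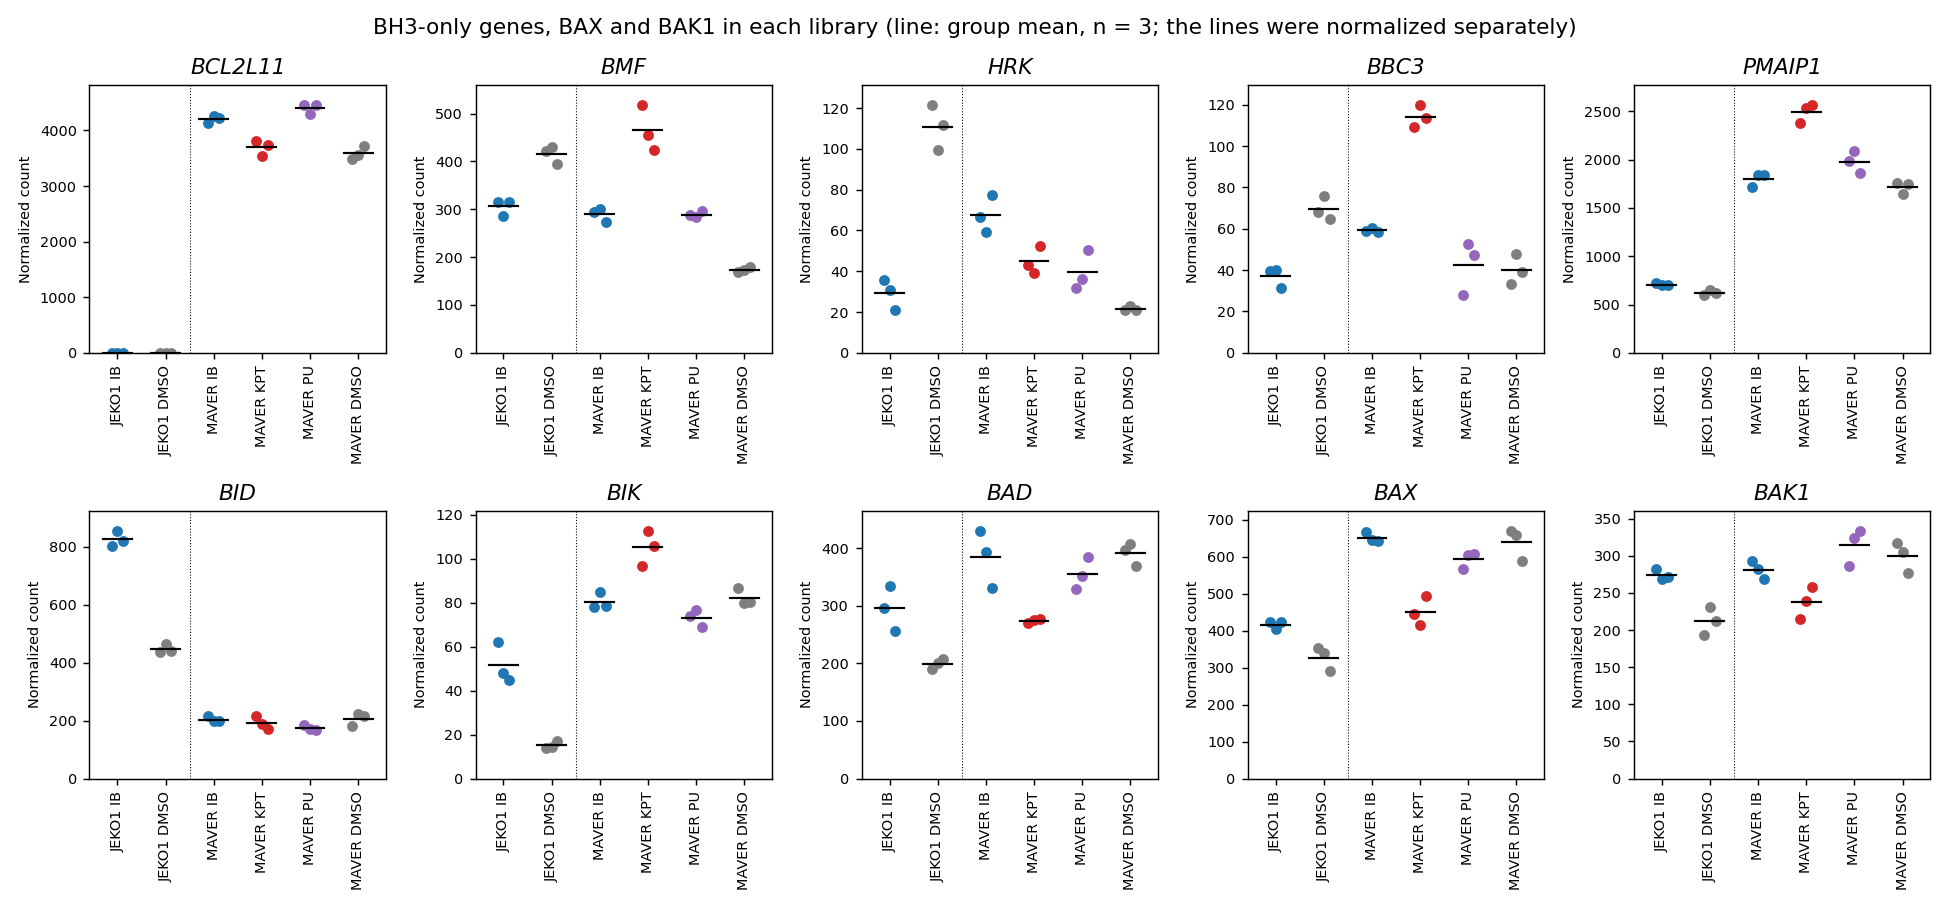
Normalized count (linear axis from 0) of each of the 10 genes in every library, with 1 panel per gene, points for libraries and a line at each group mean; the dotted line parts JEKO1 from MAVER, whose tables were normalized separately. BCL2L11 lies near 0 in all 6 JEKO1 libraries and above 3488 in all 12 MAVER libraries, and BMF, HRK and BBC3 have their lowest MAVER means with DMSO and their highest JEKO1 means with DMSO.

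BCL2L11 encodes BIM, a direct activator of BAX and BAK that binds all the main anti-apoptotic relatives. It was almost undetected in JEKO1: 2, 3 and 3 reads in the libraries labelled IB, against 3, 2 and 1 reads in the DMSO libraries, 14 reads in all, so it was not tested there. In MAVER each library held 2123 to 7584 BCL2L11 reads. Levels in MAVER were 4138, 4262 and 4231 normalized counts with IB, 3807, 3541 and 3735 with KPT, and 4461, 4297 and 4462 with PU, against 3488, 3555 and 3716 with DMSO. All IB and PU libraries lay above all DMSO libraries, while KPT replicate B lay among the DMSO libraries and KPT replicates A and C a little above them. BCL2L11 rose by a small margin with IB (log2 fold change 0.23 ± 0.04 SE, limma adjusted p = 2.78e-05) and with PU (0.30 ± 0.04, adjusted p = 5.98e-08). With KPT it differed by 0.04 ± 0.04 (adjusted p = 0.389), and KPT set directly against IB gave -0.19 ± 0.04 (adjusted p = 0.00015). Next to BCL2L11 on chromosome 2, in the gene order of RefSeq on GRCh38.p14, ANAPC1, a subunit of the anaphase-promoting complex, stood at 610.0 to 735 normalized counts over JEKO1 libraries and BUB1, a mitotic checkpoint kinase, at 2035 to 2337. The nearer neighbour ACOXL was at 0 to 2.38 in JEKO1 but also at only 0 to 10.9 in MAVER. The long noncoding gene MIR4435-1HG, a synonym of MIR4435-2HG that overlaps BCL2L11 exons on the other strand in GENCODE v29, stood at 0 to 0.862 in JEKO1 and at 14.3 to 36.3 in MAVER. Counting by strand is not stated, so reads of this pair may be mixed. No test between lines was made.

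BMF, a sensor that docks on the dynein light chain in healthy cells, HRK, which chiefly binds BCL-XL, and BBC3, whose protein PUMA binds all the main anti-apoptotic relatives, shared their directions in the IB comparison of each line. These directions were opposite between the lines, as they were for 89% of all 1415 genes called under IB in both lines. This group was named after the values were seen. The start regions of BMF, HRK and BBC3 are printed below for their shared directions, with that of BCL2L11, whose transcript was near 0 in JEKO1. The sequences come from the RefSeq promoter table on GRCh38.p14, 250 bases before to 50 after a gene's start, 5′ to 3′ on the gene's strand; BMF has 2 such windows and the first listed is shown. In lower case sequence, capitals mark matches on either strand to a FOXO core (GTAAACA), an E-box (CACGTG), an AP-1 site (TGANTCA) or a C/EBP-ATF element (TGATGNAA), none of which overlap each other here.
BMF, chr15:40108830-40109129, minus strand: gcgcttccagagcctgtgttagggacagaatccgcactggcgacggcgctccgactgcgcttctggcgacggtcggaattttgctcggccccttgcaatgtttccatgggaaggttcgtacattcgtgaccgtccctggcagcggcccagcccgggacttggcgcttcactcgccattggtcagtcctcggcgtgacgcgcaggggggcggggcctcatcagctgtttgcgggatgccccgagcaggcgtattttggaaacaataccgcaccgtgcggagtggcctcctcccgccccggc
HRK, chr12:116881392-116881691, minus strand: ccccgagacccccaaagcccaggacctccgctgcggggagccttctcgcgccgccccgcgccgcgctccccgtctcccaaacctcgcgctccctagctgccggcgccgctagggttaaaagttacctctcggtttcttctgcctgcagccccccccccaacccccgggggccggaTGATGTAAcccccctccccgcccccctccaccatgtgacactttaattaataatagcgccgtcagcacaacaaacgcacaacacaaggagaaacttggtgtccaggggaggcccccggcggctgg
BBC3, chr19:47232618-47232917, minus strand: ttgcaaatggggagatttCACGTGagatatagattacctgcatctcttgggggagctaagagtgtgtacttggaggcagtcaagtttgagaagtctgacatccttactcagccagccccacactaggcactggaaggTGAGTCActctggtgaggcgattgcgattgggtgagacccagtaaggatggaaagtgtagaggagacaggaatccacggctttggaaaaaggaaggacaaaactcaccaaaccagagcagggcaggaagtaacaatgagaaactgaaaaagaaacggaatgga
BCL2L11, chr2:111120664-111120963, plus strand: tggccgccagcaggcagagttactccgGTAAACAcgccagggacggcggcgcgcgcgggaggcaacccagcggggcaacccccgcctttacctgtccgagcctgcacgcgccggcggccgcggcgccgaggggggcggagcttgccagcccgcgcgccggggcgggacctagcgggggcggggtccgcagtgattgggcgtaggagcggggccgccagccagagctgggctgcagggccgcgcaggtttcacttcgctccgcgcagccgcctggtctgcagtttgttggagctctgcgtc

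Windows were found for 9 of the 10 genes by symbol. The FOXO core stood in the BCL2L11 window alone among the 9, at 223 bases before the start, and in 3.42% of all 35116 windows of the table. HRK held the C/EBP-ATF element (3.62% of all windows), and BBC3 held an E-box (7.26%) and an AP-1 match (7.71%). The BMF window held none of these. BAX, not printed, had 4 E-boxes, and a GC box (GGGCGG) stood in 8 of the 9 windows, against 45.0% of all windows. An EGR element (GCGTGGGCG) was in 0 of the 9 and in 0.795% of all windows. A match in these letters is a description and shows neither binding nor its absence.

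In JEKO1, BMF stood at 315, 287 and 316 normalized counts in the libraries labelled IB, against 421, 430.3 and 395 with DMSO. MAVER gave the opposite order for IB: 295, 299 and 274 with IB, 518, 456 and 424 with KPT, and 287, 284 and 296 with PU, against 169, 172 and 179.8 with DMSO. No drug library overlapped the DMSO libraries of its line, and KPT libraries lay above all others in MAVER. BMF fell by 0.44 ± 0.08 in JEKO1 (log2 fold change with SE; limma adjusted p = 9.74e-05). In MAVER it rose by 0.73 ± 0.08 with IB (adjusted p = 5.07e-09), by 1.42 ± 0.08 with KPT (1.44e-17) and by 0.73 ± 0.08 with PU (1.14e-09). KPT exceeded IB by 0.68 ± 0.08 (adjusted p = 7.46e-09), while PU and IB differed by -0.00 ± 0.08 (adjusted p = 0.99). Groups without overlap made up 50.2% of all genes tested for JEKO1 IB, and 33.8%, 60.4% and 61.2% for IB, KPT and PU in MAVER. BMF exons overlap the antisense gene BMF-AS1 on the other strand in GENCODE v29. Whether reads were counted by strand is not stated, so reads of the pair may be mixed.

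HRK is otherwise known from neurons, and its levels here were low. JEKO1 libraries labelled IB had 35.7, 31.0 and 20.9 normalized counts, against 122, 99.5 and 112 with DMSO. In MAVER HRK had 66.5, 59.2 and 77.5 with IB, 43.0, 39.2 and 52.3 with KPT and 31.6, 36.3 and 50.3 with PU, against 21.2, 22.9 and 21.1 with DMSO. The IB libraries held the lowest levels of JEKO1 and the highest of MAVER, with no overlap with DMSO in either line. HRK fell by 1.92 ± 0.19 on the log2 scale in JEKO1 (limma adjusted p = 1.07e-07), the largest fall of the 9 tested genes. With IB in MAVER it rose by 1.59 ± 0.21 (adjusted p = 8.9e-08), more than with KPT (1.004 ± 0.208, adjusted p = 7.88e-05) or PU (0.80 ± 0.21, adjusted p = 0.00113). The direct differences were -0.59 ± 0.21 for KPT against IB (adjusted p = 0.0159) and -0.79 ± 0.21 for PU against IB (0.00149). The call for KPT against IB was lost without IB replicate C (adjusted p = 0.0831) or KPT replicate B (0.0674). PU against KPT gave -0.20 ± 0.21 (adjusted p = 0.425).

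BBC3 was at 39.7, 40.1 and 31.4 normalized counts in JEKO1 libraries labelled IB, against 68.1, 76.0 and 64.9 with DMSO. MAVER had 58.8, 60.3 and 58.4 with IB, 109, 120.0 and 113 with KPT and 28.0, 52.7 and 47.5 with PU, against 33.2, 47.6 and 39.1 with DMSO. KPT libraries stood far above all others, IB libraries in a narrow band above DMSO, and PU libraries on both sides of it. In JEKO1 BBC3 fell by 0.90 ± 0.18 on the log2 scale (limma adjusted p = 0.000384). KPT raised it by 1.51 ± 0.19 (adjusted p = 9.97e-09), the largest rise of the 10 genes with that drug. The rise with IB in MAVER, 0.57 ± 0.19 (adjusted p = 0.0279), was lost without DMSO replicate A (0.159) or C (0.0746), without IB replicate A (0.0608), B (0.0791) or C (0.0566), without the variance trend (0.0863), without the filter on low values (0.0963) and by DESeq2 (0.0577). PU differed from DMSO by 0.06 ± 0.19 (adjusted p = 0.814) and from KPT by -1.45 ± 0.19 (2.36e-08). KPT also exceeded IB, by 0.94 ± 0.19 (adjusted p = 6.22e-05).

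PMAIP1 encodes NOXA, which chiefly neutralizes MCL1. Its level was 720.3, 697 and 698 normalized counts in JEKO1 libraries labelled IB, against 595, 649 and 614 with DMSO. In MAVER it was 1717, 1845 and 1836 with IB, 2379.7, 2537 and 2567 with KPT and 1981, 2086 and 1858 with PU, against 1757, 1645 and 1744 with DMSO. KPT and PU libraries lay above every DMSO library, and IB libraries overlapped them. PMAIP1 rose with KPT (log2 fold change 0.54 ± 0.05, limma adjusted p = 2.14e-12) and less with PU (0.20 ± 0.05, adjusted p = 0.000506); PU against KPT gave -0.34 ± 0.05 (1.59e-07). IB gave 0.07 ± 0.05 in MAVER (adjusted p = 0.367). The small rise in JEKO1, 0.19 ± 0.06 (adjusted p = 0.016), was lost without DMSO replicate A (0.0816) or IB replicate A (0.0519).

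BID, a sensor that caspase-8 cleaves to couple death receptors to mitochondria, stood at 803, 857 and 819 normalized counts in JEKO1 libraries labelled IB, against 436, 466 and 442 with DMSO. That rise, 0.88 ± 0.06 on the log2 scale (limma adjusted p = 4.49e-10), had the smallest p of the 9 genes in JEKO1. MAVER levels lay close together, at 215, 199 and 198 with IB, 217, 188 and 171 with KPT and 186, 170.0 and 167 with PU, against 182, 223 and 216 with DMSO. PU gave a fall of 0.24 ± 0.10 (adjusted p = 0.0457) although its libraries overlapped DMSO. The adjusted p was 0.186 and 0.139 without DMSO replicates B and C, which ends the call, as did fits without PU replicate B (0.113) or C (0.127), and under 5 further settings. IB and KPT gave -0.02 ± 0.10 and -0.11 ± 0.10 (adjusted p = 0.935 and 0.379).

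BIK, a BH3-only protein of the endoplasmic reticulum, had 61.9, 48.2 and 45.0 normalized counts in JEKO1 libraries labelled IB, against 13.8, 14.5 and 17.2 with DMSO. It rose by 1.70 ± 0.23 on the log2 scale (limma adjusted p = 6.12e-06), the largest rise of the 9 genes in JEKO1. MAVER libraries had 78.0, 84.9 and 78.6 with IB, 96.8, 113 and 106 with KPT and 74.2, 76.5 and 68.9 with PU, against 86.6, 80.0 and 80.5 with DMSO. All KPT libraries lay above the DMSO libraries, IB libraries overlapped them, and PU libraries lay just below. The rise with KPT was 0.35 ± 0.14 (adjusted p = 0.0318). It did not pass the threshold without DMSO replicate B (0.0823) or C (0.0754), without KPT replicate B (0.108) or C (0.0657), by DESeq2 (0.0638), and with KPT replicate B alone (0.056), a fit that leaves out both KPT libraries rich in RNA45S5. IB and PU gave -0.03 ± 0.14 and -0.17 ± 0.14 (adjusted p = 0.912 and 0.313).

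BAD is a sensor that AKT and PIM kinases hold inactive by phosphorylation. JEKO1 libraries labelled IB had 296, 335 and 255 normalized counts, against 189.7, 201 and 208 with DMSO. In MAVER BAD had 431, 393 and 330.3 with IB, 271, 274 and 277 with KPT and 328, 352 and 385 with PU, against 397, 408 and 369 with DMSO. KPT libraries formed a tight group below all others. BAD rose by 0.56 ± 0.10 in JEKO1 (log2 fold change with SE, limma adjusted p = 0.00014) and fell by 0.51 ± 0.08 with KPT (adjusted p = 2.25e-06). The differences with IB and PU in MAVER were -0.03 ± 0.08 and -0.14 ± 0.08 (adjusted p = 0.854 and 0.161). BAD exons overlap GPR137 on the other strand in GENCODE v29, and no source says whether reads were counted by strand, so reads of the pair may be mixed.

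BAX and BAK1, the effectors that form the pore, were both higher in JEKO1 libraries labelled IB and both lower with KPT in MAVER. BAX stood at 423, 405 and 423 normalized counts in JEKO1 libraries labelled IB, against 354, 339 and 291 with DMSO. MAVER had 668, 646 and 644 with IB, 447, 416 and 493 with KPT and 567, 605 and 608 with PU, against 671, 659 and 590.2 with DMSO. All KPT libraries lay below every other MAVER library, and IB and PU libraries overlapped DMSO. BAX rose by 0.35 ± 0.08 in JEKO1 (log2 fold change with SE, limma adjusted p = 0.00151) and fell by 0.50 ± 0.07 with KPT (3.42e-08), with 0.03 ± 0.07 for IB and -0.11 ± 0.07 for PU in MAVER (adjusted p = 0.826 and 0.173).

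BAK1 had 283, 268 and 272 normalized counts in JEKO1 libraries labelled IB, against 193, 231 and 213 with DMSO. In MAVER it had 293, 283 and 269 with IB, 215, 239 and 258 with KPT and 287, 324 and 334 with PU, against 317, 305 and 278 with DMSO. The KPT libraries were again below all others. BAK1 rose by 0.37 ± 0.09 in JEKO1 (limma adjusted p = 0.00255) and fell by 0.34 ± 0.09 with KPT (0.00123), with -0.09 ± 0.09 for IB and 0.07 ± 0.09 for PU in MAVER (adjusted p = 0.546 and 0.521). PU exceeded KPT for each of BAK1 (0.41 ± 0.09, adjusted p = 0.000132), BAX (0.39 ± 0.07, 3.65e-06) and BAD (0.37 ± 0.08, 0.000262). With KPT replicate B as the only KPT library, BAD, BAX and BAK1 and BMF, HRK, BBC3 and PMAIP1 still passed the threshold against DMSO; a lone library gives no spread of its own, and this fit assumes that it varies like the other groups. BAK1 exons overlap GGNBP1 on the other strand in GENCODE v29, and its processed copies may share reads, so its level is less certain.

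**Figure D2:**
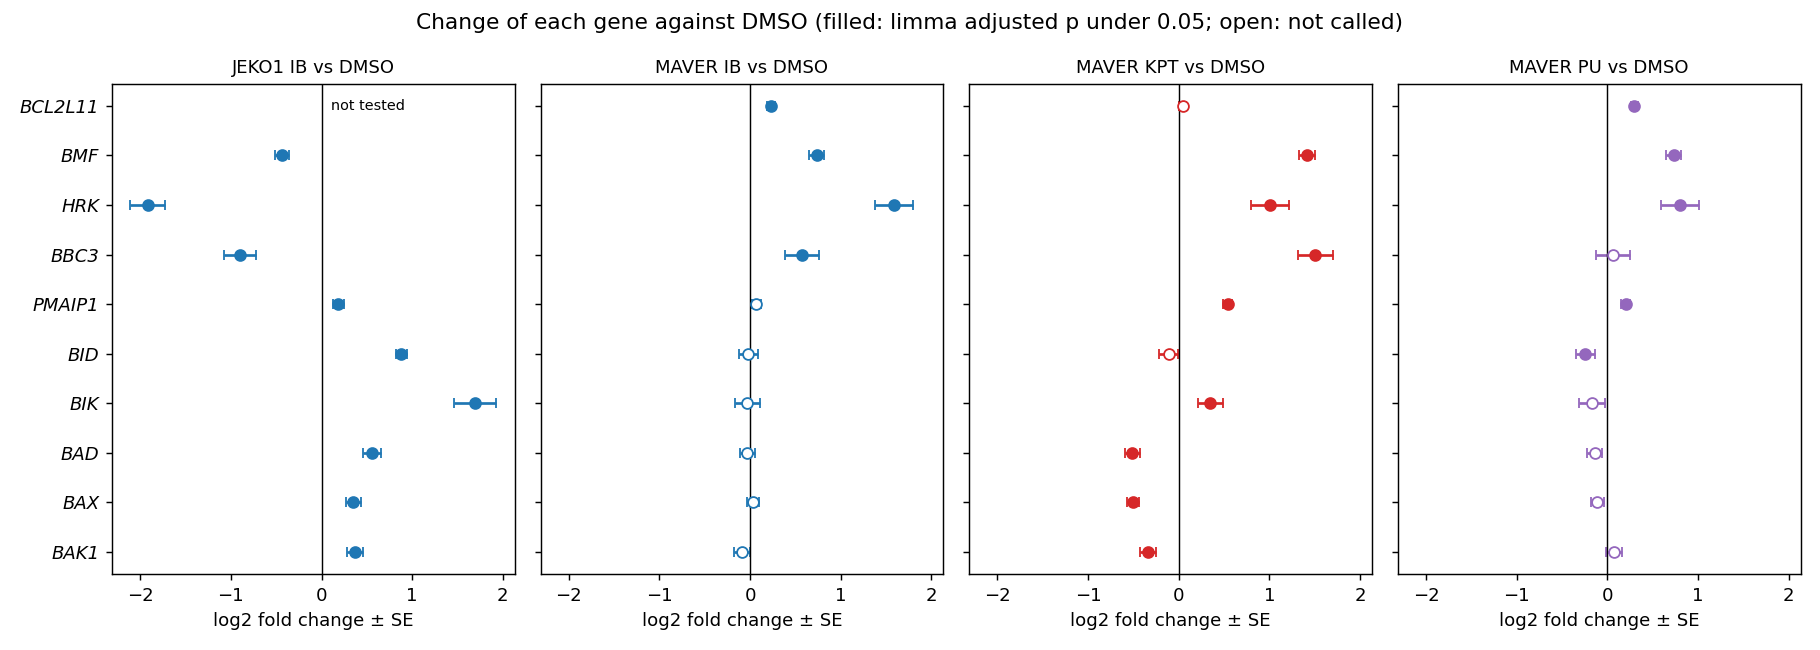
Log2 fold change with SE (horizontal axis) of each gene for IB in JEKO1 and for IB, KPT and PU in MAVER, each against DMSO; filled points passed limma's adjusted p of 0.05 and open points did not. With KPT, 5 BH3-only genes have filled points right of 0 and BAD, BAX and BAK1 filled points left of it, with open points for BCL2L11 and BID, and with PU most points lie near 0.

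Set directly against IB in MAVER, KPT gave a call for 9 of the 10 genes, where 55.2% of all genes were called: BMF, BBC3, PMAIP1 and BIK were higher with KPT (27.0% of all genes were), and BCL2L11, HRK, BAD, BAX and BAK1 lower (28.2% of all genes). The call of BAK1 (-0.25 ± 0.09, limma adjusted p = 0.0158) was lost without IB replicate A (0.0635) or KPT replicate A (0.107), with KPT replicate B as the only KPT library (0.109) and by DESeq2 (0.0605), and that of BIK (0.38 ± 0.14, adjusted p = 0.0192) without IB replicate A (0.0555) or KPT replicate B (0.0738). PU against IB gave calls for 3, where 55.1% of all genes were called (27.5% up, 27.6% down) and 59.8% had groups without overlap. These were PMAIP1 (0.13 ± 0.05, limma adjusted p = 0.0188), HRK and BBC3 (-0.51 ± 0.19, adjusted p = 0.0216). The call of BBC3 was lost without PU replicate A (-0.24, adjusted p = 0.304) or IB replicate B (0.0541), without the filter (0.0674) or the variance trend (0.0546), by edgeR with TMM (0.0687) or the authors' factors (0.0651) and by DESeq2 (0.0981), and held in 11 of 18 alternatives. That of PMAIP1 was lost without IB replicate A (0.119) or PU replicate B (0.148), without the trend (0.0736) and with rescaling to equal totals (0.14). PU against KPT gave calls for 8, 4 higher and 4 lower, where 57.0% of all genes were called (28.3% up, 28.6% down) and 60.6% had groups without overlap. HRK and BID were the 2 without a call there.

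The order of MAVER groups thus differed from gene to gene. For BMF it ran KPT (466 ± 48.1 normalized counts, SD, n = 3), IB (289 ± 13.6), PU (289 ± 6.28) and DMSO (174 ± 5.71), with IB and PU not apart. HRK ran IB (67.7 ± 9.22), KPT (44.9 ± 6.75), PU (39.4 ± 9.70) and DMSO (21.7 ± 0.992), with KPT and PU not apart. PU (4407 ± 94.7) and IB (4210 ± 64.4) were highest for BCL2L11 and did not differ past the threshold (adjusted p = 0.176), nor did KPT (3695 ± 138) and DMSO (3586 ± 117). Per kilobase of exon (GENCODE v29, merged basic transcripts, a build other than that of the counts), PMAIP1 with 817 and BCL2L11 with 589 normalized counts per kilobase were the highest of the 10 in MAVER DMSO libraries, then BAX with 454 and BAD with 295. In JEKO1 the order of levels per kilobase was PMAIP1 (336), BAX (295), BID (294) and BAD (223) in libraries labelled IB, against PMAIP1 (295), BAX (232), BID (160) and BAD (150.4) with DMSO, with BCL2L11 last at 0.447 and 0.316.

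The IB effect was compared between the lines by subtracting the MAVER effect, each effect being taken within its own table. BCL2L11 passed the filter over these 12 libraries through MAVER alone and is not counted. The effect differed for 8 of the other 9 genes, where 38.6% of all 11638 genes tested were called (20.4% higher and 18.2% lower in JEKO1). The effect was lower in JEKO1 for HRK (-3.51 ± 0.27 on the log2 scale, limma adjusted p = 9.32e-09), BBC3 (-1.47 ± 0.24, 8.2e-05) and BMF (-1.17 ± 0.11, 7.72e-08). It was higher in JEKO1 for BIK (1.73 ± 0.23, adjusted p = 9.85e-06), BID (0.90 ± 0.11, 3.28e-06), BAD (0.59 ± 0.15, 0.0036), BAK1 (0.46 ± 0.12, 0.00473) and BAX (0.32 ± 0.10, 0.0179). Without MAVER DMSO replicate A the BAX call was lost (adjusted p = 0.0519). PMAIP1 gave 0.12 ± 0.07 (adjusted p = 0.187). With the JEKO1 labels exchanged, 5 of the 9 would differ, PMAIP1, BID, BIK, BAD and BAX, and HRK and BBC3 would not (0.33 each, limma adjusted p = 0.434 and 0.368). BMF (-0.29, adjusted p = 0.0594) and BAK1 (-0.28, 0.103) would not pass the threshold either.

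**Figure D3:**
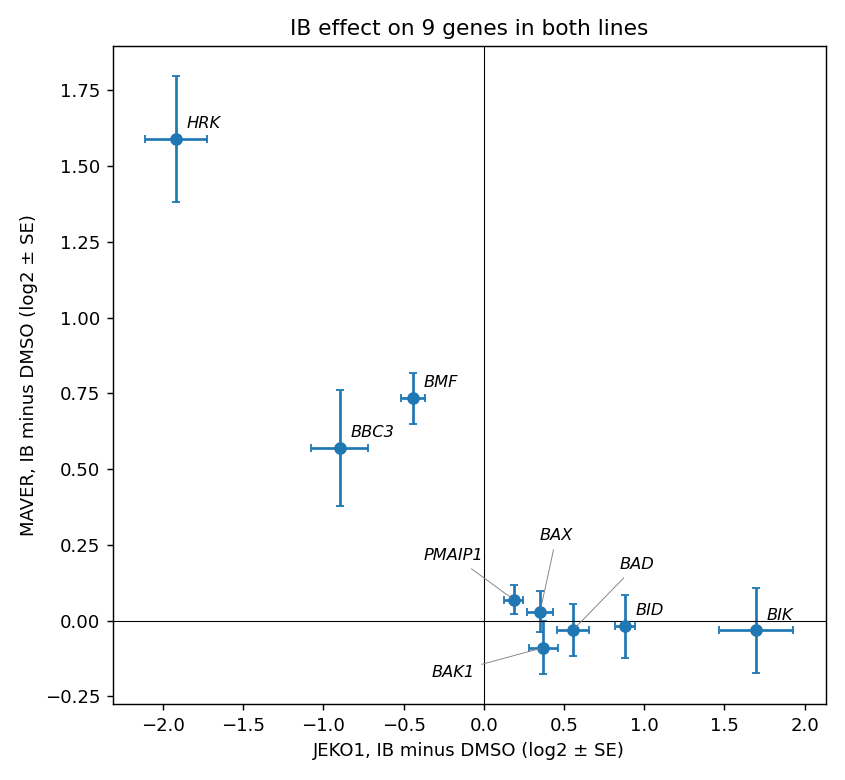
IB effect (log2, IB minus DMSO, with SE) of the 9 genes tested in both lines, JEKO1 on the horizontal and MAVER on the vertical axis. HRK, BBC3 and BMF lie in the upper left, lower in JEKO1 and higher in MAVER, while the other 6 lie right of 0 in JEKO1 and near 0 in MAVER.

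Among the anti-apoptotic relatives, which BH3-only proteins bind, in JEKO1 4 of 5 tested rose in libraries labelled IB and 0 fell. BCL2A1 averaged 41.5 ± 11.1 normalized counts there and 1.85 ± 1.91 with DMSO (SD, n = 3), BCL2L1 rose by 0.42 ± 0.07 and MCL1 by 0.17 ± 0.04 (log2 fold change with SE). BCL2A1 passed the filter in JEKO1 through the libraries labelled IB alone, so its place among those tested is tied to its rise. It is among the 4 counted. Of these relatives, 3 of 4 tested rose with IB in MAVER, 2 of 4 with KPT and 3 of 4 with PU, and 0 fell in each. Of all genes tested, 21.9% rose and 20.2% fell for JEKO1 IB, and 10.1% and 9.65% for MAVER IB. For KPT 27.3% rose and 28.5% fell, and for PU 27.6% and 27.5%. BCL2, the largest of these relatives in MAVER by count, averaged 14563 ± 405 with IB, 12696 ± 197 with KPT and 13516 ± 237 with PU, against 10607 ± 173 with DMSO (SD, n = 3; limma adjusted p = 3.1e-13, 1e-07 and 9.18e-11). MCL1, the partner of NOXA, gave 0.02 ± 0.04 with KPT (adjusted p = 0.69) and rose by 0.23 ± 0.04 with PU (1.13e-05).

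Other BCL2-related genes, mostly relatives with roles in autophagy or with a less settled part in death, rose in 2 and fell in 3 of 6 tested in JEKO1, rose in 2 and fell in 1 with IB in MAVER, rose in 4 and fell in 0 with KPT, and rose in 4 and fell in 1 with PU. BNIP3L (NIX), a mitophagy receptor, rose by 1.02 ± 0.07 with KPT (adjusted p = 5.63e-16), by 0.76 ± 0.07 with PU and by 0.30 ± 0.07 with IB in MAVER, and fell by 0.32 ± 0.06 in JEKO1. The mitochondrial death machinery downstream of BAX and BAK counted 9 of 15 up and 0 down in JEKO1, 2 up and 4 down with IB in MAVER, 2 up and 6 down with KPT, and 4 up and 6 down with PU. The counts of these lists stand beside the shares of all genes given for the anti-apoptotic relatives. CYCS, which encodes cytochrome c, fell by 0.18 ± 0.05 with IB in MAVER, by 0.46 ± 0.05 with KPT and by 0.58 ± 0.05 with PU. MTCH2, the mitochondrial receptor of truncated BID, fell by 0.19 ± 0.05, 0.58 ± 0.05 and 0.45 ± 0.05 in the same order. APAF1, the scaffold of the apoptosome, averaged 520.4 ± 13.7 normalized counts with KPT, 284 ± 8.08 with IB and 337 ± 16.0 with DMSO (KPT against IB 0.87 ± 0.08, limma adjusted p = 8.9e-13).

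Transcription factors known to control BH3-only genes counted 7 of 15 up and 3 down in JEKO1, 2 up and 3 down with IB in MAVER, 8 up and 2 down with KPT, and 4 up and 3 down with PU. FOXO4, of the FOXO factors that are known to drive BCL2L11 and BBC3, averaged 221 ± 9.81 normalized counts with KPT against 83.2 ± 13.5 with DMSO (SD, n = 3), a rise of 1.41 ± 0.13 on the log2 scale (limma adjusted p = 1.51e-12). With PU, FOXO4 also rose, by 0.72 ± 0.13 (limma adjusted p = 5e-06). FOXO3 rose by 0.67 ± 0.13 with KPT (limma adjusted p = 3.04e-05), while FOXO1 gave 0.01 ± 0.06 (0.843). BCL2L11 itself was not called with KPT, and a part of FOXO factors in the member changes was not tested. E2F1, a factor that drives entry into S phase, rose by 0.35 ± 0.05 with KPT (limma adjusted p = 4.87e-07) and fell by 1.10 ± 0.05 with PU (8.44e-21). EGR1, an early gene of receptor signals, averaged 211 ± 15.8 in JEKO1 libraries labelled IB and 17.7 ± 3.12 with DMSO, but 0.321 ± 0.556 with IB in MAVER and 33.2 ± 9.09 with DMSO (SD, n = 3). JUN gave the same pair of directions, with a rise of 1.85 ± 0.27 in JEKO1 and a fall of 1.14 ± 0.22 with IB in MAVER. EGR1 passed the filter in MAVER through its DMSO and PU libraries alone. ATF3, also counted, passed in JEKO1 through the libraries labelled IB alone. The counts of the 4 lists stand beside 42.0% of all genes called for JEKO1 IB, 19.8% for MAVER IB, 55.9% for KPT and 55.1% for PU. The totals called of the anti-apoptotic list and the death machinery with KPT, and of the transcription factors with PU, lie near those shares. Median log2 fold changes of the 4 lists stood between -0.183 and 0.486, and the quartiles of all genes between -0.24 and 0.257, over the 4 drug comparisons.

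**Figure D4:**
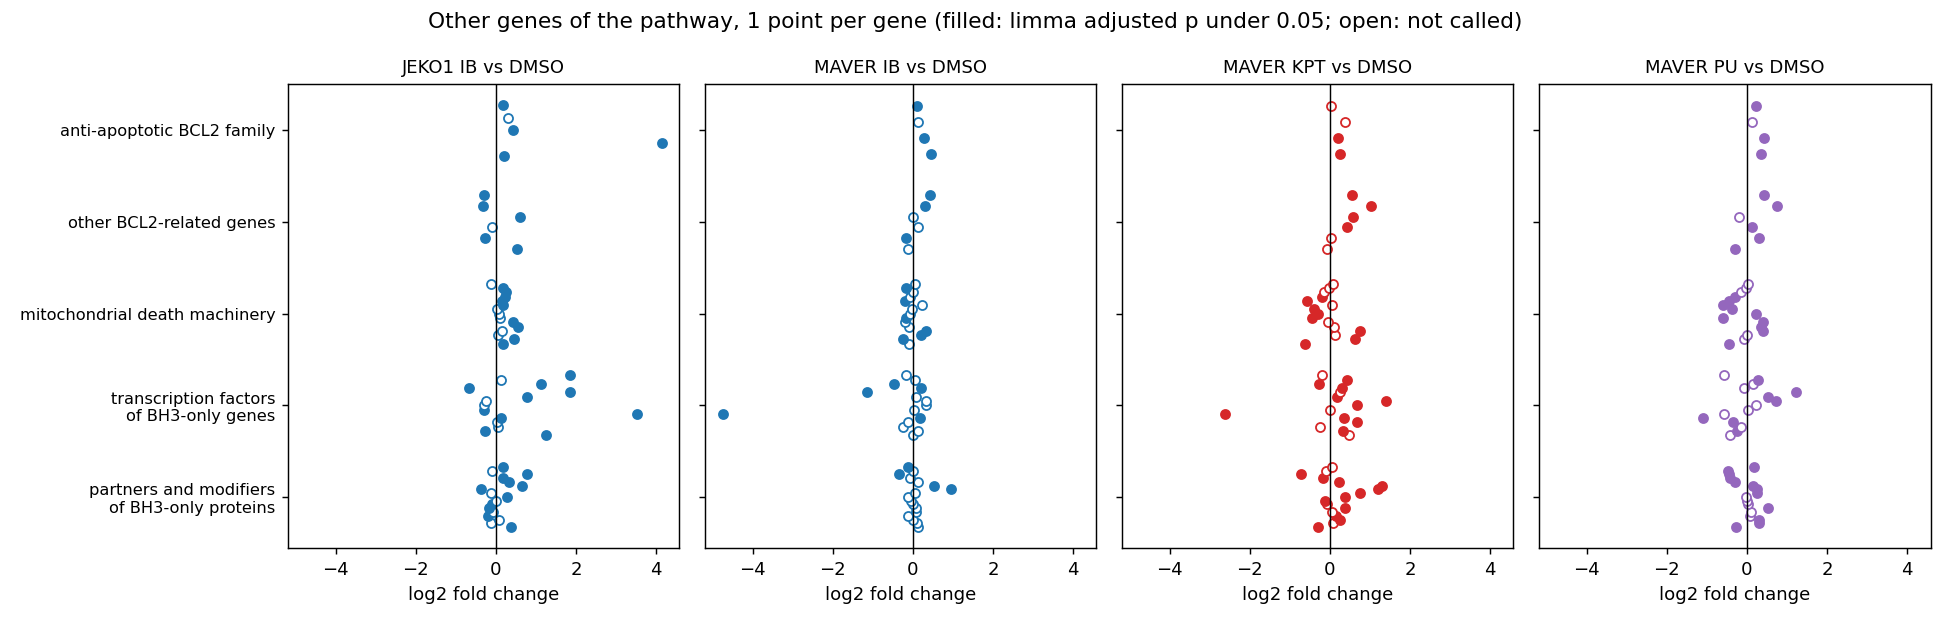
Log2 fold change (horizontal axis, shared by the panels) of each tested gene of 5 other lists of the pathway for IB in JEKO1 and IB, KPT and PU in MAVER, each against DMSO; filled points passed limma's adjusted p of 0.05. Anti-apoptotic genes lie at or right of 0 in each panel, and the far points are BCL2A1 and EGR1. BCL2A1 in JEKO1 passed the filter through the libraries labelled IB alone.

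By likeness of pattern over the 12 MAVER libraries (Pearson r of log2 values, among 9543 other genes with a mean of at least 50), BMF, which had the largest moderated F of the members over the 4 groups, stood nearest to ADCK3 (r = 0.987), YPEL3 (0.983) and CIPC (0.983). ADCK3 averaged 787 ± 40.8 normalized counts with IB, 1282 ± 19.5 with KPT and 724 ± 19.5 with PU, against 471 ± 8.07 with DMSO (SD, n = 3). PMAIP1, with the next largest F, stood nearest to UFC1 (r = 0.984), PSME1 (0.974) and PEX2 (0.974). These r are a description: the libraries fall into 4 groups, and the best of many genes is shown.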

How the data were processed

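RNA from 18 libraries of JEKO1 and MAVER (6 groups of 3, lettered A, B and C in the sample titles) was made into stranded TruSeq libraries and read as single ends on a HiSeq instrument, per the labels' protocols. Reads were aligned with STAR, abundance was estimated with Cufflinks and drug was tested against DMSO with DESeq2, per the same protocols; the build was hg19, per the submitters' processing notes. No source used here gives the counter, strand setting or annotation. The authors deposited a normalized signal per gene, read counts over 1 factor per library, with 1 table per line. Dividing by each library's smallest positive value gave whole reads for 100% of values (within 0.01 read).

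Log2(normalized count + 1) was tested with limma 3.58.1 (R 4.3.3; eBayes with trend) where a gene averaged 10 or more across a fit's libraries, with Benjamini-Hochberg adjustment over all genes; fold changes are on this scale, which understates those of low genes. The 4 MAVER groups shared 1 fit, and the line difference used 12 libraries. Members, lists and tests were chosen with earlier results of these data known. Named are all members and, of the other lists, up to 3 called genes with the smallest p per comparison, with further genes where a member's partner or known regulator is described; 1 gene that this rule names is not reported here. Same-group libraries differed by more than sampling noise (chi-square per degree of freedom 1.41 to 5.15). Alternatives were other pseudocounts, filters and scalings, no trend, the replicate block, fits of the compared groups alone, each library left out, KPT replicate B alone, exchanged JEKO1 labels, and edgeR 4.0.16 and DESeq2 1.42.0 on recovered reads. The limma step was run on simulated data with the same spread set for all genes and few genes changed. That setting is unlike these libraries, so the run does not show error rates here.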

Additional observations from a re-analysis of the deposited data

Results flagged for a closer look

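The IB effect differed between the lines, by limma's test of the difference itself (JEKO1 effect minus MAVER effect, log2), for 8 genes. The differences were -3.51 for HRK, -1.47 for BBC3, -1.17 for BMF, 1.73 for BIK, 0.90 for BID, 0.59 for BAD, 0.46 for BAK1 and 0.32 for BAX, and 38.6% of all genes tested differed in this way. For HRK, BBC3 and BMF each line had a call of its own, in opposite directions. Opposite directions were also found for 89% of all 1415 genes called under IB in both lines, so they are not particular to these genes. The other 5 had a call in JEKO1 and none in MAVER. The MAVER call of BBC3 held in 10 of 18 alternatives and was lost without any of 5 single libraries (adjusted p up to 0.159). The lines were normalized separately, and the directions of JEKO1 rest on its labels as given.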

How the results depend on the processing

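Over 79 member values and their alternatives, 1424 of 1503 kept their direction and their side of the threshold, 46 lost a call, 6 gained one and 27 changed sign. The counts of members called stayed within 1.5 times, except for PU against IB, where eBayes without trend called 1 in place of 3, and for the line difference with JEKO1 labels exchanged, which called 5 in place of 8. With each library left out in turn, the counts were 8 to 9 for JEKO1 IB, 3 to 4 for MAVER IB, 7 to 8 for KPT, 4 to 5 for PU, 7 to 9 for KPT against IB, 2 to 4 for PU against IB, 8 for PU against KPT and 7 to 8 for the line difference. The exchange turned the line difference to -0.59 for BCL2L11, 0.33 for HRK, 0.33 for BBC3, -0.26 for PMAIP1, -0.86 for BID, -1.66 for BIK, -0.52 for BAD, -0.38 for BAX and -0.28 for BAK1, by construction. The other sign changes were of values without a call: KPT replicate B alone gave -0.018 for BCL2L11 against DMSO, rescaling to upper quartiles gave 0.052 for BMF in PU against IB, and a pseudocount of 5 gave -0.075 for BCL2L11 in the line difference. With a library left out, values whose sign changed spanned, for IB in MAVER, -0.071 to 0.0033 for BIK, -0.11 to 0.037 for BID, -0.029 to 0.064 for BAX and -0.12 to 0.074 for BAD; for PU, -0.11 to 0.33 for BBC3; for PU against IB, -0.040 to 0.024 for BMF; and for the line difference, -0.14 to 0.37 for BCL2L11. Rescaling to equal totals in PU against IB ended the call of PMAIP1 (0.09, adjusted p = 0.14) and added BID and BAX; the cause was not tested. Replicate letters did not pair the libraries: deviations of same-letter libraries correlated at -0.0918 to 0.118, and the own letter was best in 8 of 21 cases. The replicate block changed 1 call, BID with PU (adjusted p = 0.0512), which took that count to 4. BCL2L11 had 14 reads in all of JEKO1, did not pass the filter there and was not tested in that line.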

Other observations

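Partners and modifiers of BH3-only proteins, a list of kinases, ligases and binding proteins, rose in 7 and fell in 4 of 17 tested genes in JEKO1 libraries labelled IB. In MAVER 2 rose and 2 fell with IB, 8 and 4 with KPT, and 7 and 5 with PU. Of all genes tested, 42.0% were called for JEKO1 IB, 19.8% for MAVER IB, 55.9% for KPT and 55.1% for PU, so the share of the list called with IB in MAVER was near that of all genes. PIM1 and PIM2 encode kinases that phosphorylate BAD. PIM1 averaged 2190 ± 39.3 normalized counts with IB, 2598 ± 22.4 with KPT and 1349 ± 45.2 with PU, against 1126 ± 35.6 with DMSO in MAVER (SD, n = 3). In JEKO1 PIM1 stood at 4722 ± 36.9 in libraries labelled IB and 6144 ± 141 with DMSO, a fall, while PIM2 rose there, at 1176 ± 104 in libraries labelled IB and 749 ± 40.1 with DMSO. The rise of PIM2 was 0.65 ± 0.06 on the log2 scale (limma adjusted p = 8.93e-08) and that of PIM3 in JEKO1 0.33 ± 0.06 (0.000382). PIM2 averaged 2740 ± 40.6 with KPT against 1120.3 ± 47.3 with DMSO in MAVER. RPS6KA1, the kinase RSK1 that acts below ERK and also phosphorylates BAD, fell by 0.73 ± 0.05 with KPT (log2 fold change with SE, limma adjusted p = 5.39e-17), by 0.46 ± 0.05 with PU and by 0.34 ± 0.05 with IB in MAVER, and rose by 0.78 ± 0.05 in JEKO1. DYNLL2, the dynein light chain that holds BMF, was not called in any of the 4 drug comparisons.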
